A study of Caenorhabditis elegans with 14 samples.

Results

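The histone genes of Caenorhabditis elegans were examined in a table of small RNAs of 21 to 26 nt counted per gene. Members were the rows with WormBase IDs from WBGene00001875 to WBGene00001946, the numbered range his-1 to his-72. Of the 72 IDs in that range 71 were among the 20541 genes of the table, and his-23 was not analysed here. Small RNAs were sequenced from whole young adult worms, synchronised by timed egg lay, after treatment of the RNA with a 5' polyphosphatase, which lets RNAs with a 5' triphosphate be ligated. The 12 libraries formed 5 groups. N2 is the wild type (n = 2), HC125 carries the transgene Psid-1::gfp, a reporter of the sid-1 promoter (n = 4), and hrde-1;HC125 (strain HC995) carries the same reporter in an hrde-1 mutant (n = 2). The remaining groups, labelled HC83 non-array, were sampled at generation F6, described as silenced (n = 2), and at generation F21, described as de-silenced (n = 2); they are called F6 and F21 here. What the HC83 worms carry beyond these words was not stated in the labels used here, and nothing said whether libraries of a group came from separate cultures, so p-values measure the spread between these libraries, which may be technical.

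Histones package DNA. A nucleosome core is built from H2A, H2B, H3 and H4, and the linker histone H1 binds outside it. In animals the replicative core histone genes lie in clusters, are transcribed in dividing cells and give messenger RNAs that end in a stem loop instead of a poly(A) tail. In C. elegans RNA-dependent RNA polymerases copy messenger RNAs into short antisense RNAs with a 5' triphosphate, which Argonaute proteins bind. CSR-1, a germline Argonaute, has been linked to histone messenger RNA, and HRDE-1 is the nuclear Argonaute of the germline that carries inherited silencing. Counts at a gene here are small RNAs assigned to that gene and not its messenger RNA.

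Library totals ran from 451389 counts in HC125 replicate 1 to 6379388 in hrde-1;HC125 replicate 1, a 14.1-fold range. The histone genes took 0.730% to 1.36% of the counts of a library. Levels are given below as counts per 1000000 (CPM) of the library total scaled by the trimmed mean of M-values (TMM). Replicates 1 and 2 of HC125 and replicate 2 of N2 differed from the rest, with 0.1315% to 0.190% of counts at the 31 genes of the major sperm protein, against 0.0286% to 0.0967% in the other 9 libraries, and the main counts are also given without these 3 libraries. None of the 31 sperm protein genes was at 0 in any group.

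The 71 members comprised 1 H1 gene, 17 H2A, 17 H2B, 19 H3 and 16 H4 genes, and 1 gene, C50F4.6 (WBGene00001910), with no class assigned. Coding length mostly followed the class: 16 of 17 H2A genes had a coding sequence of 381 bp, 16 of 19 H3 genes 408 bp and 16 of 16 H4 genes 309 bp in the WBcel235 annotation. H2B was less uniform, with 11 of 17 genes at 369 bp and a range of 201 to 369 bp. All but his-24, his-71 and his-72 lay in 12 clusters with gaps of at most 50 kb. The largest by number of genes were a 14-gene cluster on chromosome V (8847393 to 8898539) and a 13-gene cluster on chromosome II (13817760 to 13828697). Clusters of 8, 6, 4 and 4 genes lay on chromosome IV, and clusters of 5, 4 and 4 genes lay elsewhere on chromosome V. In 16 places an H2A gene and an H2B gene stood head to head, transcribed away from each other, with 227 to 327 bp between their gene models (median 292 bp).

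No pair of members had equal counts in all 12 libraries, and no pair had equal counts in more than 3. Many nonetheless tracked each other more closely than separate counting would give. A noise ratio was computed for each pair as the squared difference of the counts over their sum, averaged over libraries, which is expected to be 1 when 2 counts are separate draws from the same mean. Of 563 pairs of the same class, 27 had a ratio under 1.5, against 6 of 1922 pairs of different classes. The closest pair was his-9 and his-13, H3 genes of the chromosome II cluster, at 0.0434. Their counts were 37 and 37 in HC125 replicate 1 and 833 and 821 in hrde-1;HC125 replicate 1. Among H2A genes the closest pairs were his-19 with his-53 at 0.145, his-57 with his-65 at 0.152 and his-12 with his-43 at 0.214. Just inside the limit was his-34 with his-39, at 1.47, and just outside it was his-29 with his-39, at 1.51. Of the 27 pairs 18 lay within 1 cluster and 26 on 1 chromosome. Together they linked 38 members into 16 groups of near-copies, among them his-12, his-16 and his-43, his-7, his-19 and his-53, his-47, his-57 and his-65, and his-21 with his-51. The name near-copy rests on counts alone. His-39, with a coding sequence of 201 bp, was grouped with his-29 and his-34, which have 366 bp. The sources used here do not give how reads that match several genes were counted. Whether members of such a group share reads was not tested, and they are not taken here as separate observations. If they do, sums over a class or cluster, shares of a library and ratios of sums could count the same read several times.

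Per kb of exon, the level at the H1 gene his-24 was far above that of any core histone gene, with a mean over the 12 libraries of 3371 CPM per kb. H4 genes had a median of 301 CPM per kb, from 149 to 630, with his-64 and his-46 highest. H2A genes had a median of 260 CPM per kb, from 195 to 543, with his-61 and his-47 highest. For H3 the median was 170 CPM per kb, from 5.82 to 322, led by his-45 and his-25, and for H2B it was 137 CPM per kb, from 56.4 to 418, led by his-58 and his-48. The ranges of the 4 core classes overlapped. The 38 members in groups of near-copies were all core histone genes, and his-24 was in none. How reads that match several genes were counted is not known here, and its part in these levels per gene was not tested.

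**Figure D1:**
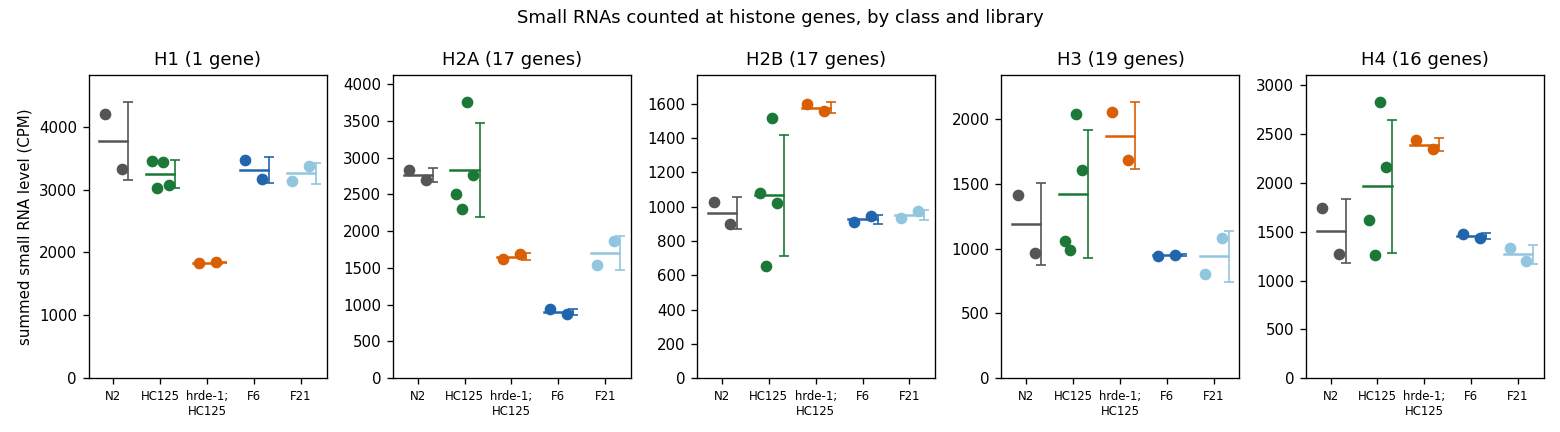
Summed small RNA level (CPM, vertical axis from 0) of the members of each histone class in the 12 libraries, by group. Points are libraries, horizontal lines are group means and bars are 1 SD. H2A libraries of F6, at 875 and 935 CPM, lie below those of N2, at 2694 and 2832 CPM, while H2B libraries of F6, at 909 and 946 CPM, lie among those of N2, at 896 and 1029 CPM.

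Each of the 70 members with enough counts was tested in 6 comparisons with edgeR's quasi-likelihood test on all 12 libraries, and a gene was called at a Benjamini-Hochberg adjusted p under 0.05 over the 10470 genes tested. Between HC125 and N2, edgeR called 0 members, where 0.506% of all genes tested were called (0.22% higher and 0.287% lower). At an unadjusted p under 0.05 there were 5 of 70, where 10.5% of all genes were at that level, and DESeq2 called 0. Between hrde-1;HC125 and HC125, 22 members were called, 10 higher and 12 lower in the mutant, or 31.4% where 17% of all genes were called (7.76% higher and 9.2% lower). Against N2 the mutant had 24 called members, 15 higher and 9 lower, or 34.3% where 17.7% of all genes were called (8.84% higher and 8.89% lower). Between F6 and N2, 15 members were called, each lower in F6, or 21.4% where 1.44% of all genes were called (0.382% higher and 1.06% lower). In F6 against F21, 4 members were called, each lower in F6, or 5.71% where 0.143% of all genes were called (0.086% higher and 0.0573% lower). For F21 against N2 edgeR called 0 members, where 0.201% of all genes were called (0.115% higher and 0.086% lower), 15 of 70 had an unadjusted p under 0.05 where 14.2% of all genes did, and DESeq2 called 6. These comparisons share libraries: N2 stands in 4 of them and F6, F21, HC125 and the mutant in 2 each. In whole worms, fewer cells that make a small RNA and less of it per cell cannot be told apart.

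**Figure D2:**
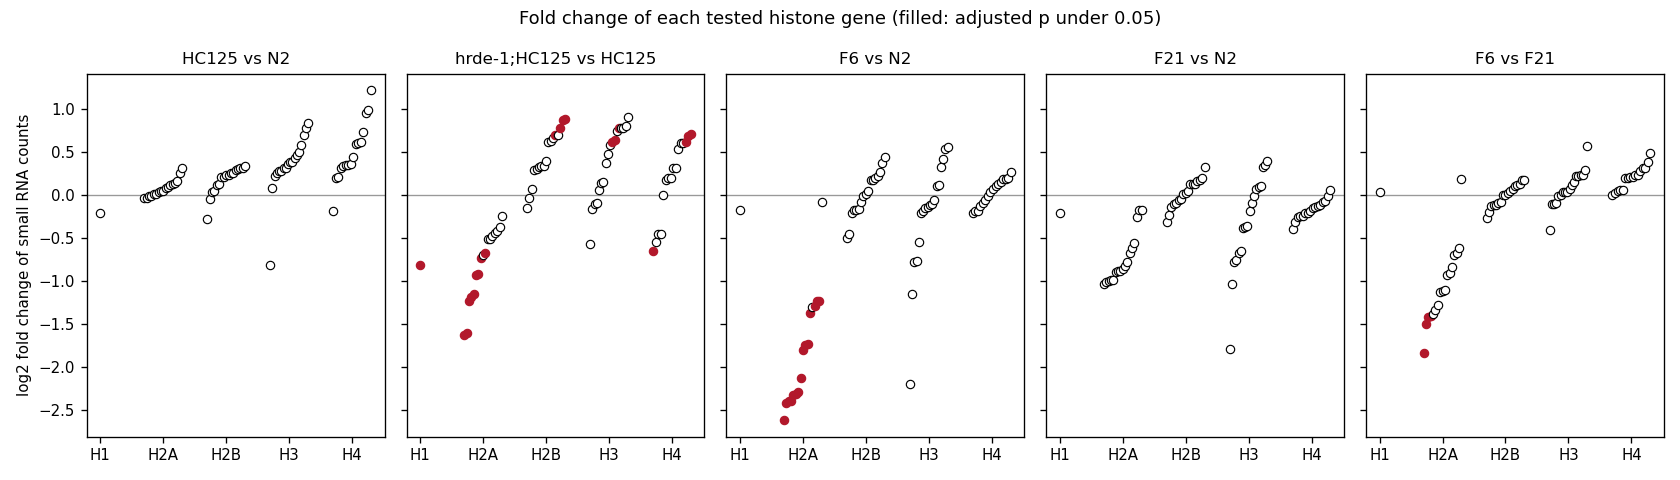
Log2 fold change of the small RNA counts (vertical axis) of each tested member by histone class in 5 comparisons, with filled points for an adjusted p under 0.05. Filled points of F6 against N2 are all H2A genes, between -2.62 and -1.24, while H2B values run from -0.51 to 0.44.

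Small RNAs at H2A genes were lower in F6 than in N2. The class fell in 15 of its 17 genes, or 88.2% where 1.06% of all genes tested fell. The called falls ran from -2.62 to -1.24 on the log2 scale, with a class median of -1.81 where the median of all genes was 0.06. Over the class, the summed level was 2832 and 2694 CPM in N2 and 935 and 875 CPM in F6, or 2763 ± 98.0 (SD, n = 2) against 905 ± 42.8 (SD, n = 2). No library of F6 reached any library of N2. Of the remaining classes, 0 of 17 H2B, 0 of 18 H3, 0 of 16 H4 genes and not H1 were called. The H2B, H4 and H1 classes also had 0 calls under each alternative run, while H3 had 4 lower without the filter on low counts and 3 lower without the 3 libraries that stood apart. Without those libraries 12 H2A genes were called, 11 of them among the 15, with a class median of -1.59.

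The gene with the largest fall was his-61 (WBGene00001935), an H2A gene on chromosome IV (7485834 to 7486217, minus strand). It had 325 and 303 CPM in N2 and 53.3 and 48.6 CPM in F6. HC125 held 263, 246, 409 and 296 CPM, the mutant 85.3 and 113 CPM, and F21 192 and 168 CPM. F6 libraries were thus lowest, the mutant next and F21 between the mutant and N2, with no overlap among these 4 groups. Against N2, his-61 fell by 2.62 (log2, SE 0.23, adjusted p = 4.293e-06), a 6.14-fold difference. The H2B gene his-62, 327 bp away on the other strand, had 97.2 and 80.5 CPM in N2 and 79.3 and 85.7 CPM in F6, where the groups overlapped (log2 difference -0.09, SE 0.35, adjusted p = 0.931).

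H2A genes of the chromosome V clusters showed falls of about that size. In the 14-gene cluster his-21 (WBGene00001895) had 117 and 97.2 CPM in N2 and 21.8 and 18.3 CPM in F6. The fall was -2.40 (log2, SE 0.24, adjusted p = 1.965e-05), and that of its near-copy his-51 was -2.40. The F6 libraries lay below every other library at his-21, with the lowest of the others at 51.4 CPM in F21. Falls at his-19 (-2.42) and his-53 (-2.33) of the same cluster, at his-7 (-2.31) of the 5-gene cluster and at his-3 (-2.29) of the cluster of his-1 to his-4 were called too. These genes include near-copies, so they may be fewer observations than genes.

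On chromosome I, his-68 had 144 and 143 CPM in N2 and 36.3 and 29.2 CPM in F6 (log2 -2.13, SE 0.25, adjusted p = 0.000116). For the chromosome II trio, his-16 stood at 175 and 219 CPM in N2 and at 58.8 and 54.9 CPM in F6, a fall of 1.81 (log2, SE 0.22, adjusted p = 0.0001979), with his-12 at -1.75 and his-43 at -1.73. Chromosome IV clusters beyond his-61 had the smaller called falls, with his-65 at -1.38, his-33 at -1.29, his-57 at -1.24 and his-47 at -1.24. Thus each of the 9 clusters with a called H2A gene also held members of other classes that were not called.

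The H2A genes not called were his-30 and his-35. At his-30 the libraries stood at 104 and 67.1 CPM in N2 and 36.3 and 30.6 CPM in F6 (log2 -1.31, SE 0.32, adjusted p = 0.0567). Summed with its near-copy his-33 it passed the test, at -1.31 (adjusted p = 0.03639). The other gene, his-35 (WBGene00001909, chromosome V, 9544659 to 9545288), has a gene model whose exons of 498 bp exceed its coding length of 381 bp. This is not particular to it, since the called his-57 has exons of 678 bp and a coding length of 441 bp. His-35 had 210 and 179 CPM in N2 and 176 and 188 CPM in F6 (log2 -0.08, SE 0.17, adjusted p = 0.847). Its 12 libraries ranged from 143 to 216 CPM, the mutant and F21 included, and it was called in no comparison.

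With near-copies summed into 1 row each, 8 of 9 H2A rows fell between F6 and N2. Leaving out any 1 library of the 2 groups left 11 to 14 called members, and the same 11 genes, his-3, his-7, his-12, his-16, his-19, his-21, his-43, his-51, his-53, his-61 and his-68, were called under each such omission. The sperm protein share was lower in F6, at 0.0304% and 0.0286%, than in N2, at 0.0574% and 0.190%. The part of that share in the fall of H2A was not tested.

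**Figure D3:**
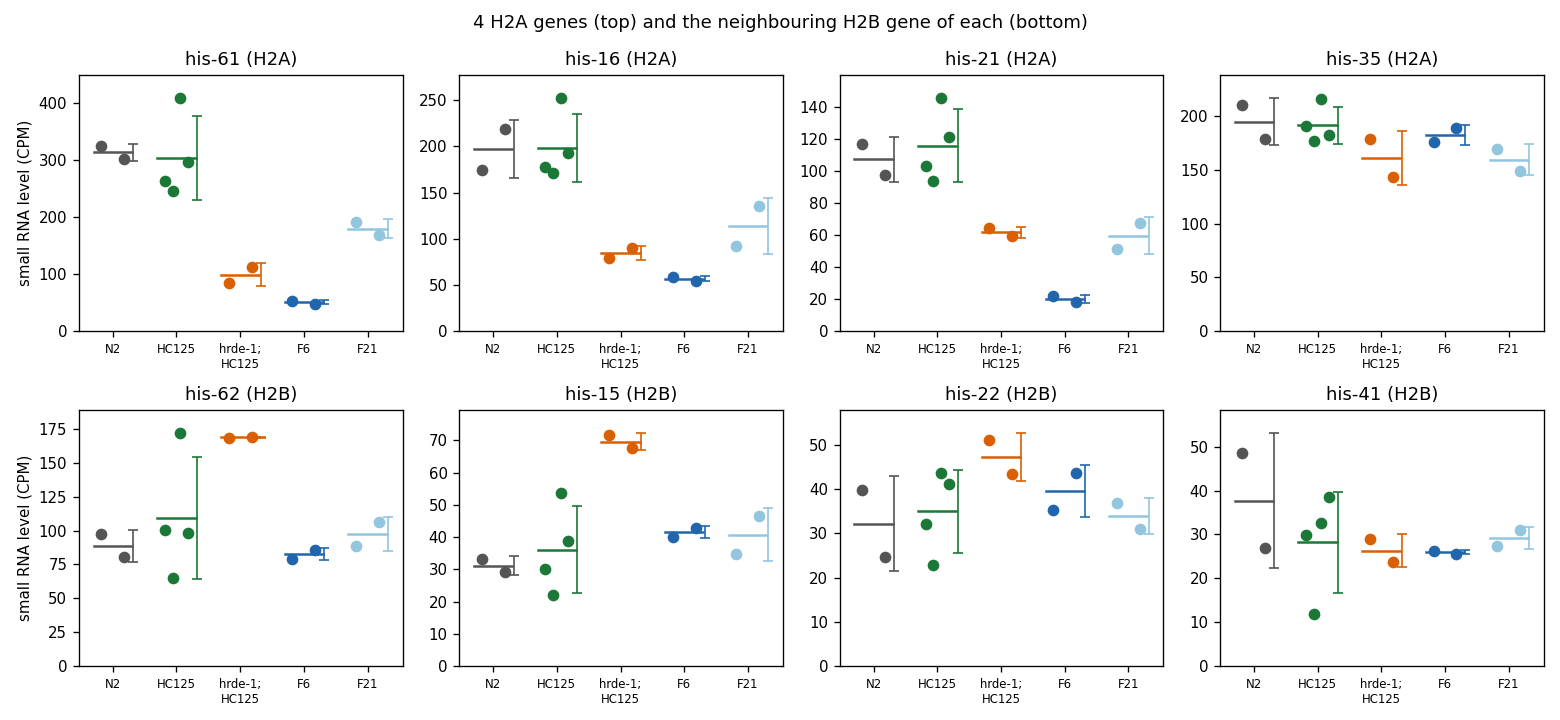
Small RNA level (CPM, vertical axes from 0, scaled per panel) of 4 H2A genes in the upper row and of the H2B gene next to each in the lower row, by library and group; lines are means and bars 1 SD. At his-61, his-16 and his-21 the F6 libraries are lowest, at 48.6 to 53.3, 54.9 to 58.8 and 18.3 to 21.8 CPM, while his-35 stays between 143 and 216 CPM in all 12 libraries.

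F21 lay between F6 and N2 for H2A. The summed H2A level was 1542 and 1870 CPM in F21, above both F6 libraries and below both N2 libraries. In F6 against F21 the called falls were his-61 (-1.84, SE 0.23, adjusted p = 0.0009768), his-21 (-1.50), his-7 (-1.42) and his-51 (-1.41). Of 17 H2A genes 16 were lower in F6 at an unadjusted p under 0.05, a level that 1.2% of all genes reached in that direction, with a class median of -1.12 where the median of all genes was 0.01. No gene of H1, H2B, H3 or H4 reached that unadjusted level. Against N2, F21 had 14 of 17 H2A genes lower at an unadjusted p under 0.05, a level that 7.98% of all genes reached in that direction, with a class median of -0.87 where that of all genes was 0.02, and edgeR called none of them. DESeq2 called 5 H2A genes lower there, the fit without a filter on low counts 11 and the fit without the 3 libraries that stood apart 7. Of the 4 calls of F6 against F21, his-61 alone was kept when any 1 library was left out, F6 replicate 1, F6 replicate 2, F21 replicate 1 or F21 replicate 2, and without F21 replicate 1 C50F4.6 was called as well. With near-copies summed 2 of the 9 H2A rows were called.

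In the hrde-1 mutant, H2A genes were lower than in HC125 while 10 genes of H2B, H3 and H4 were higher. Of 17 H2A genes 9 fell, or 52.9% where 9.2% of all genes tested fell, with a class median of -0.70 where that of all genes was -0.03. The summed level was 2508, 2304, 3751 and 2768 CPM in HC125 and 1617 and 1690 CPM in the mutant, so the groups did not overlap. His-61 fell by 1.63 (log2, SE 0.20, adjusted p = 8.029e-06) and his-68 by 1.60. At his-68 HC125 had 111, 134, 207 and 156 CPM and the mutant 53.8 and 48.6 CPM. The chromosome II trio fell by 1.24 (his-16), 1.19 (his-43) and 1.16 (his-12). Smaller falls were called at his-51 (-0.93), his-21 (-0.93), his-7 (-0.74) and his-53 (-0.68). At his-47, which was not called, HC125 had 244, 182, 307 and 198 CPM and the mutant 148 and 179 CPM (log2 -0.51, SE 0.19, adjusted p = 0.0789). The fall was held under each omission of 1 library by 7 of the 9 H2A genes, his-12, his-16, his-21, his-43, his-51, his-61 and his-68. With near-copies summed, 4 of 9 H2A rows were called lower, and the row of his-7, his-19 and his-53 was not (-0.69, adjusted p = 0.05295). Scaling by library size alone moved the median of all genes by about -0.12, from -0.03 to -0.15. With that scaling 13 H2A genes were called lower, and 2 H2B, 1 H3 and 3 H4 genes higher, in place of 4, 3 and 3.

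The comparisons of the mutant with HC125 and of F6 with F21 share no library. The 4 H2A genes called lower in F6 than in F21 were all among the 9 called lower in the mutant, 100% of the shorter list and 44.4% of the longer. Those 9 were 52.9% of the 17 H2A genes tested, and whether the overlap exceeds that share was not tested. Near-copies his-21 and his-51 are among the 4. Order of the falls differed: his-68 fell by 1.60 in the mutant and stood at -1.12 in F6 against F21, where it was not called, and his-7 fell by 0.74 in the mutant and by 1.42 in F6 against F21. Whether these sizes differ beyond their error was not tested.

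Linker histone his-24 (WBGene00001898, chromosome X, 14490094 to 14491119) was called lower in the mutant, against HC125 and against N2, and in no other comparison. It had 4204 and 3328 CPM in N2, 3448, 3023, 3440 and 3074 CPM in HC125, and 1829 and 1844 CPM in the mutant. F6 held 3463 and 3168 CPM and F21 3140 and 3376 CPM, within the range of HC125 and N2. The mutant libraries lay below the lowest of the other 10. The fall was 0.82 against HC125 (log2, SE 0.14, adjusted p = 0.0002595) and 1.03 against N2 (SE 0.15, adjusted p = 0.0001004), and it was called under each alternative run. Between F6 and N2 the difference was -0.18 (SE 0.15, adjusted p = 0.565).

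Some H2B genes were higher in the mutant. Against HC125, 4 of 17 rose, or 23.5% where 7.76% of all genes tested rose, and the class median was 0.39. They were his-15 (0.88, SE 0.23, adjusted p = 0.01053), his-11 (0.87), his-44 (0.77) and his-54 (0.69). All but his-54 lie in the chromosome II cluster and make up its H2B genes. Of these, his-15 and his-44 are near-copies, and their summed row was also called higher (0.84, adjusted p = 0.02384). At his-15, which faces the falling his-16 across 227 bp, HC125 had 29.98, 21.98, 53.6 and 38.8 CPM and the mutant 71.5 and 67.7 CPM. Both mutant libraries were above every other library, and N2 (33.1 and 29.1 CPM), F6 (40.2 and 42.9 CPM) and F21 (34.9 and 46.5 CPM) lay within the range of HC125. The near-copies his-48 and his-58, the highest of the class per kb, were not called against HC125 (his-48 at 0.66, SE 0.23, adjusted p = 0.0660). At his-48 HC125 had 141, 93.8, 218 and 131 CPM and the mutant 223 and 242 CPM. Against N2 4 H2B genes (23.5%) rose, where 8.84% of all genes tested did. These were his-15 by 1.18, his-44 by 1.00, his-66 by 0.93 and his-11 by 0.91, all but his-66 in the chromosome II cluster. With scaling by library size alone, 1 H2B gene was called higher against N2.

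Some H3 and H4 genes were also higher in the mutant. Of all genes tested, 7.76% rose against HC125 and 8.84% against N2. Against HC125 the H3 genes his-49 (0.77, SE 0.22, adjusted p = 0.01933), his-6 (0.63) and his-17 (0.61) rose, 3 of 18 or 16.7%. Against N2 his-6 (1.46), his-49 (1.23), his-59 (1.07), his-17 (1.03) and his-2 (0.94) rose, 5 of 18 or 27.8%. At his-6 N2 had 22.1 and 16.8 CPM, HC125 40.7, 25.4, 35.9 and 34.3 CPM and the mutant 52.8 and 51.01 CPM. Of 16 H4 genes 3 (18.8%) rose against HC125, his-31 (0.71, SE 0.20, adjusted p = 0.01721), his-60 (0.69) and his-67 (0.61). Against N2 6 (37.5%) rose, among them his-60 (1.02) and his-67 (0.95). At his-67, the H4 gene that faces his-68 on chromosome I, HC125 had 92.1, 99.7, 150 and 118 CPM and the mutant 182 and 176 CPM, without overlap. The H4 class median against HC125 was 0.25, and it was -0.02, with 4 genes higher and 4 lower, without the 3 libraries that stood apart. HC125 replicate 3 was the highest of its group for each core class, with 1516 CPM summed over H2B, 2043 over H3 and 2826 over H4. Its H2B sum lay just below the mutant's 1556 and 1599 CPM, its H3 sum between the mutant's 1688 and 2054 CPM, and its H4 sum above the mutant's 2349 and 2438 CPM. None of the rises of H2B, H3 or H4 against HC125 held under each omission of 1 library: 9 members were called without mutant replicate 1, all lower, 9 without mutant replicate 2, of them 1 higher, and 33 without HC125 replicate 3. Without the 3 libraries that stood apart 35 members were called, 14 higher and 21 lower. Against N2, 24 members were called with all libraries, 14 without N2 replicate 1, 10 without N2 replicate 2, 11 without mutant replicate 1 and 14 without mutant replicate 2, and the rises of his-6 and his-67 were the 2 that held under each. Without the 3 libraries that stood apart 27 members were called against N2, 17 of them among the 24, and the H4 rises went from 6 to 3.

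**Figure D4:**
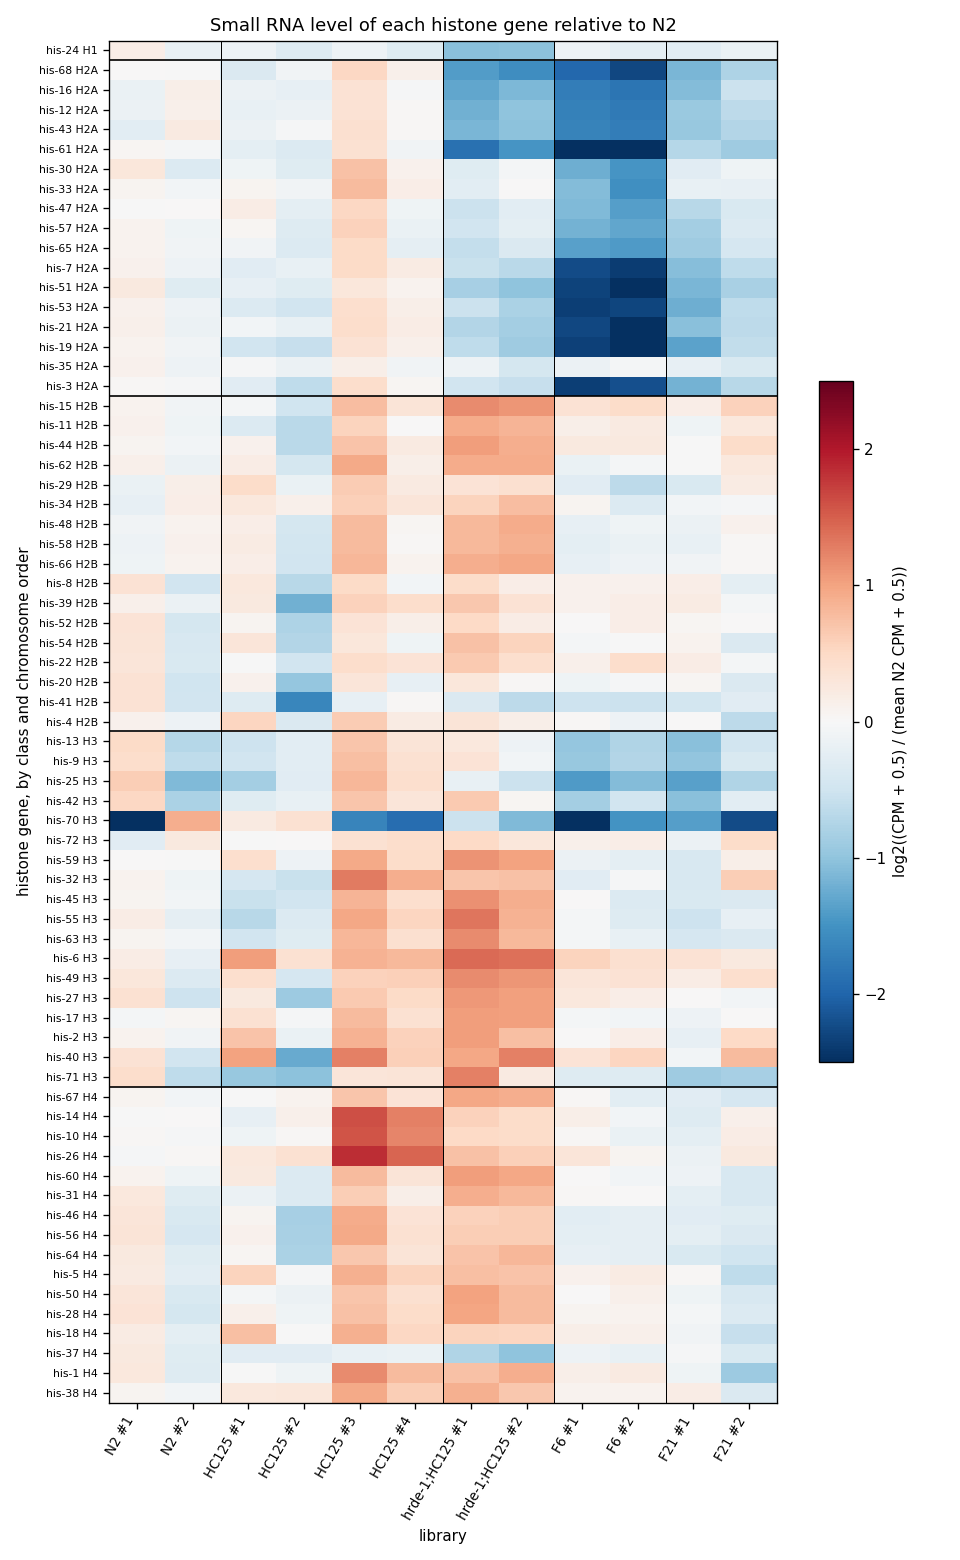
Small RNA level of 69 members (rows, by class and chromosome order) in the 12 libraries (columns), as log2 of the ratio of CPM + 0.5 to the mean N2 CPM + 0.5, with the colour scale ending at -2.5 and 2.5. Blue blocks of H2A genes stand in the mutant and, more strongly, in F6, his-35 is pale throughout, and H2B, H3 and H4 rows are mostly red in the mutant and in HC125 replicate 3.

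Between HC125 and N2, 61 of 70 members had a value above 0, with a median of 0.25 where that of all genes was 0.01. The H2A median was 0.04, the H2B median 0.23 and the H4 median 0.40. Without HC125 replicate 3 the H2A median was -0.08, the H2B median -0.04 and the H4 median 0.23, so the direction of H2A and H2B rests on that library. The sums of HC125 overlapped those of N2 in each class. Without the filter on low counts, and again without the 3 libraries that stood apart, 3 H4 genes were called higher.

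Within a library, the ratio of H2A to H2B counts needs no scaling between libraries. Over all members it was 2.75 and 3.00 in N2 and 2.33, 3.54, 2.48 and 2.71 in HC125. It was 1.01 and 1.09 in the mutant, 1.03 and 0.925 in F6, and 1.65 and 1.92 in F21. Over all members the mutant and F6 therefore lay together and lowest, F21 next, and N2 and HC125 highest. The sums behind that likeness differed. Mean H2A and H2B sums were 1654 and 1577 CPM in the mutant and 905 and 927 CPM in F6. In the 14-gene cluster of chromosome V these groups lay apart, at 1.13 and 1.15 in the mutant and 0.529 and 0.445 in F6. F21 there had 1.08 and 1.94. In the chromosome II cluster the ratio was 4.29 and 6.23 in N2, 4.22 to 7.36 in HC125, 1.07 and 1.29 in the mutant, and 1.35 and 1.22 in F6. Of the 9 clusters that hold both classes, F6 lay wholly below N2 in 8 and wholly below F21 in 8, and the mutant wholly below HC125 in 7. The cluster of his-35 and his-41 was the exception in each: its ratio was 4.32 and 6.667 in N2, 6.671 and 7.34 in F6, and 6.13 and 6.07 in the mutant. The cluster of his-1 to his-4 was the other exception for the mutant, at 1.28 and 1.36 against 1.27 to 2.03 in HC125. At the level of single genes, 22.3% of all genes tested lay wholly lower in F6 than in N2. The share was 16.7% for F6 against F21 and 17.1% for the mutant against HC125. These are shares for levels and not for ratios, and some clusters share near-copies. Across the 16 head-to-head pairs, 14 H2A genes and 0 H2B genes were called lower between F6 and N2 (0 H2B genes at an unadjusted p under 0.05, and 0 by DESeq2). Between the mutant and HC125, 8 H2A genes of these pairs were lower and 4 H2B genes higher, and the H2A value was below that of its H2B neighbour in 16 of 16 pairs. Near-copies stand on both sides of these pairs, so they may be fewer observations than pairs.

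**Figure D5:**
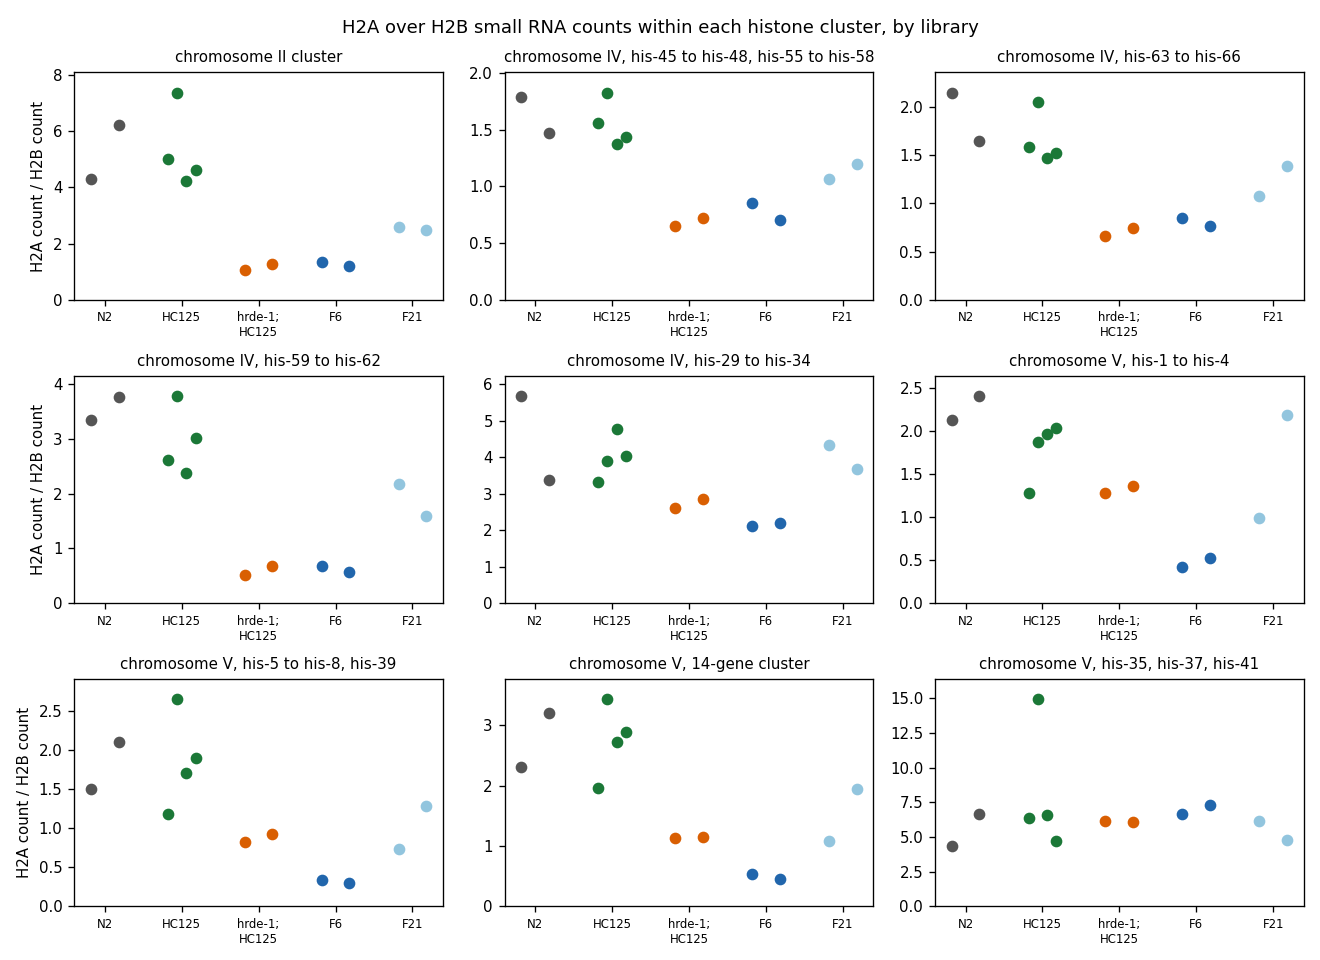
Ratio of H2A to H2B small RNA counts (vertical axes from 0, scaled per panel) within each of the 9 clusters that hold both classes; points are libraries. F6 lies below N2 in 8 of the 9 clusters. In the cluster of his-35, his-37 and his-41 F6, at 6.671 and 7.34, lies just above N2, at 4.32 and 6.667.

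In the mutant against HC125, 5 of 16 H4 genes had values below 0. Those of the chromosome II cluster, 3 genes at -0.55 to -0.45, were not called, and against N2 they were above 0, at 0.49 to 0.67. The H4 gene of the cluster that holds his-35 and his-41 was called lower, against the direction of the other called genes of its class. There his-37 (WBGene00001911, 9547105 to 9547607) had 111, 111, 119 and 121 CPM in HC125 and 80.5 and 66.9 CPM in the mutant, where 3 other H4 genes rose. It fell by 0.65 against HC125 (log2, SE 0.16, adjusted p = 0.008016) and by 0.84 against N2, and was the H4 gene called lower in both. The call was lost without mutant replicate 2 in both comparisons, and against N2 also without N2 replicate 1. The H2B gene his-41 was low, at 11.8 to 48.6 CPM, and was called in no comparison. C50F4.6 (9546092 to 9546841, the same strand) overlaps his-41, so reads of the 2 genes could be split by the counting. It had 25.7, 52.4, 32.1 and 24.6 CPM in HC125 and 12.2 and 12.4 CPM in the mutant (log2 -1.44, SE 0.37, adjusted p = 0.01534), a call lost without either mutant library. It had 62.6 and 145 CPM in F21, above each of the other 10 libraries, where the tests against F6 and N2 gave adjusted p of 0.207 and 0.177, while DESeq2 and the fit without a filter on low counts called both differences.

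Among H3 genes outside the replicative clusters, levels and behaviour differed. The replacement variant gene his-72 (chromosome III, 12367475 to 12369050) had 77.3 to 133 CPM over the 12 libraries and was called in no comparison. His-71 (chromosome X, 7981382 to 7982070), the other replacement variant, ran from 10.1 to 50.9 CPM. Its highest library was mutant replicate 1, and the second mutant library, at 24.7 CPM, lay within the range of HC125 (log2 0.90, SE 0.36, adjusted p = 0.111). The H3-like gene his-70 had 2.21 and 38 CPM in N2 and 23.6, 26.2, 6.08 and 4.98 CPM in HC125. Its 3 highest libraries were the 3 that stood apart by sperm protein share, and its remaining values were 2.21 to 13.7 CPM. The part of that share in the levels of his-70 was not tested. His-69, its neighbour, had 0 to 15 counts per library and did not pass the filter on low counts with all 12 libraries; it was called in none of the alternatives that tested it. The highest H3 genes per kb in the replicative clusters, his-45 and his-25, were called in no comparison. At his-25 the N2 libraries stood far apart, at 245 and 73.8 CPM.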

How the data were processed

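The members and the class, pathway and marker lists were chosen with earlier results of these data known. The authors deposited raw counts per gene of reads of 21 to 26 nt. Bowtie2 and HTSeq are named in the submitters' processing notes. The sources used here give neither their versions nor the genome build, the annotation, the use of strand or how multiply matching reads were counted. Columns were matched to libraries by title, and the 2 HC125 libraries labelled 5' dependent were not analysed here.

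Gene models and coordinates came from Ensembl for WBcel235, which held 20194 of the 20541 IDs. Member names were taken from RefSeq models at the same coordinates, since Ensembl gave 49 distinct symbols, and 70 matched the number of the ID. Histone classes came from general knowledge of the numbered genes and were checked by coding length only; the protein comparison planned for this could not be run. No sequence of the genes was used.

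Of 18202 genes with a count, 10470 passed edgeR's filterByExpr (minimum count 10, total 15). Counts were scaled by TMM and fitted with edgeR 4.0.16 (robust quasi-likelihood, R 4.3.3) on 5 groups with 7 residual degrees of freedom, two-sided, with Benjamini-Hochberg adjustment over all 10470 genes and calls under 0.05. CPM are these scaled counts. The pipeline was tested on simulated data. Genes to be named were the members outside the replicative sets, the 2 highest per kb in each class and up to 6 rises and 6 falls per comparison among called members whose groups did not overlap; his-3, his-30, his-33, his-37, his-57, his-65, his-66 and his-2, and the neighbours his-41, his-62, were added after their values were seen. Alternatives were library size alone, DESeq2 1.42.0, no filter, only the 2 groups, a replicate block, leaving out each library, leaving out 3 libraries together, members with equal counts entered once, and, added after seeing the data, near-copies summed and crossed numbers for the block. Where 1 library of a group was left, it was assumed to vary like the other groups. Depth sets the precision of each value, and counting error grows as totals fall toward 451389.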

Additional observations from a re-analysis of the deposited data

How the results depend on the processing

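No called value of a named member changed sign under any alternative run: of 414 recomputed values, 359 kept direction and call and 55 lost the call, 46 of these by leaving out 1 library. Counts of called histone genes moved as follows. The share of all genes called in each alternative run is not given here, so a move need not be particular to histone genes. HC125 against N2 gave 0, and 3 both without the low-count filter and without the 3 libraries apart. The mutant against HC125 gave 22, 17 with DESeq2, where 6 genes rose in place of 10, 16 with only the 2 groups, 39 without the filter, 37 with a replicate block, 35 without the 3 libraries apart, and 9 to 33 with 1 library left out. Against N2 the mutant gave 24, 41 without the filter, 43 with the replicate block and 10 to 14 with 1 library left out; the correlation of same-numbered deviations was -0.178, and the block with crossed numbers also gave 43. With only the 2 groups in the fit it gave 36. F6 against F21 gave 4, 11 with DESeq2, 14 without the filter, 15 with only the 2 groups, 14 with the replicate block, 14 without the 3 libraries apart, 2 with near-copies summed and 1 to 2 with 1 library left out. F6 against N2 gave 15, 8 with near-copies summed and 11 to 14 with 1 library left out, and 15 to 20 otherwise; the 15 without the 3 libraries apart were 12 H2A and 3 H3 genes. F21 against N2 gave 0, 6 with DESeq2, 14 without the filter, 12 with the replicate block, 10 without the 3 libraries apart and 0 to 1 with 1 library left out. Entering members of equal counts once changed nothing, since no pair was equal in all libraries. Near-copies summed leave fewer rows to call, and the cause of the other moves was not tested.

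Same-numbered libraries had correlations of -0.254 to 0.312, so the numbers were not treated as pairs. With the replicate block the HC125 against N2 medians were -0.19 for H2A, -0.20 for H2B and -0.15 for H3. With the replicate block 10 H2A genes were called lower in the mutant against N2, and 7 without it. As plain shares of the deposited counts, per 1000000 and with no TMM, the summed levels moved by more than 1 SD of the libraries in these cases: in the mutant H1 to 1744, H2A to 1570, H2B to 1497, H4 to 2271 and C50F4.6 to 11.6, and in F6 H3 to 929. By cluster they moved in the mutant to 219 on chromosome I, 1589, 854 and 657 in the 8-gene and the 2 4-gene clusters of chromosome IV (his-63 to his-66, then his-59 to his-62), 133 in the pair on chromosome X and 1897 in the 3 genes outside clusters. In F6 they moved to 728 on chromosome II, 430 at his-63 to his-66, 204 in the 5-gene and 638 in the 14-gene cluster of chromosome V, and in F21 to 459 at his-59 to his-62. These changes were between -5.11% and 0.0865% of the value.

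Groups of 2 libraries limit each test, and totals from 451389 to 6379388 counts make low genes such as his-69, his-70 and his-41 imprecise in the shallow libraries. Counts of near-copies are not taken as separate measurements.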

Other observations

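Genes that belong to the histone system but lie outside the numbered range were described from lists chosen with earlier results known. Of 12 further histone genes 10 were tested. Between the mutant and HC125, 3 rose and 1 fell, where 7.76% of all genes tested rose and 9.2% fell. The linker histone genes hil-5 and hil-2 rose by 1.13 (log2, SE 0.17) and 0.77 (SE 0.18), and the H3 gene his-74 rose by 0.52 (SE 0.14). The linker histone gene hil-3 fell by 1.97 (SE 0.17), from a mean of 720 CPM in HC125 to 184 CPM in the mutant, and it stood at 752 CPM in N2, 655 CPM in F6 and 626 CPM in F21. So hil-3 and his-24 fell in the mutant while hil-2 and hil-5 rose. Against N2, where 8.84% of all genes rose and 8.89% fell, 5 rose and 1 fell: the same genes, with hil-4 (0.58, SE 0.19) and the centromeric H3 gene hcp-3 (0.56, SE 0.15). In the other 4 comparisons edgeR called 0 of the 10. The H2A variant gene htz-1 had a mean of 24.5 CPM in N2, 32.4 CPM in F6 and 39.6 CPM in the mutant and was called in no comparison, and its log2 difference between F6 and N2 was 0.40 (SE 0.26), where the 15 called H2A genes of the clusters fell.

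Of 7 genes for factors linked to histone messenger RNA or small RNA, hrde-1 was the 1 called where 17% of all genes were, lower in the mutant by 1.01 (log2, SE 0.17) against HC125, with a mean of 504 CPM against 1008 CPM. These are small RNAs counted at hrde-1 and do not measure its messenger RNA. The stem-loop binding protein gene cdl-1 and csr-1 were called in no comparison. Of 11 histone chaperone genes, spt-16 (0.79, SE 0.12) and unc-85 (0.47, SE 0.14) rose in the mutant against HC125 and against N2; 2 of 11 is near the 17% and 17.7% of all genes called in these comparisons. None was called in the other 4 comparisons.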
